A study of Mus musculus with 24 samples.

Results

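The 12 liver libraries described here compare the lowest dose of dichloroacetic acid (DCA), 1 g/L in the drinking water, with untreated controls. They were chosen by the dose in their labels, 6 libraries with 0 g/L (replicates 3 to 8) and 6 with 1 g/L (replicates 49 to 54), out of 24 libraries in a series that also holds 2 and 3.5 g/L. All came from male B6C3F1 mice, a hybrid strain, 4 weeks old, exposed for 6 days. Frozen tissue of mixed liver lobes was used, and total RNA was sequenced after removal of ribosomal RNA. DCA in water was the only agent named, and the labels name no allele or transgene. Nothing in the labels states that the samples of a group came from different mice, so the tests speak only of differences among these samples, which may be partly technical. Title tags divide the treated group. Replicates 49 to 51 carry the tag L1, as all controls do, and replicates 52 to 54 carry L2, as the 2 g/L libraries do. The labels do not give the meaning of the tag.

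DCA forms when drinking water is chlorinated, and it blocks the kinases that switch off pyruvate dehydrogenase, the entry of pyruvate into the citric acid cycle. It is cleared in liver by the glutathione transferase that Gstz1 encodes. The hepatocyte makes triglyceride and lipoproteins, keeps blood glucose up between meals, and secretes most complement and clotting proteins. Many of these functions follow daily and feeding rhythms set by clock factors, glucocorticoids and insulin.

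Values are RPKM as deposited, read counts scaled for gene length and library size. A log2 fold is the difference of mean log2(RPKM + 1), 1 g/L minus control, with its standard error (SE). The added 1 shrinks folds of genes with few reads. A gene is said to rise or fall where the Benjamini-Hochberg adjusted p over all 6272 genes tested was below 0.05. Depth was recovered from the step that 1 read makes among low values, and came to about 27000000 to 28500000 reads in controls and 27100000 to 29800000 at 1 g/L. Relative depth did not differ detectably (exact permutation test over 924 splits, two-sided p = 0.554). Across genes, pairs of libraries correlated at r = 0.9829 to 0.9908 within controls, 0.9895 to 0.9948 within 1 g/L and 0.9787 to 0.9906 between them. On the first principal component of these 12 libraries (28.3% of variance) controls lay at −13.3 to −2.6 and 1 g/L at 2 to 9.4. All 13 hepatocyte markers were detected, with albumin (Alb) at a median of 22000 RPKM in controls. All 7 neutrophil markers in the table averaged below 0.5 RPKM, as did 11 of 12 lymphocyte markers and 9 of 10 pancreatic markers. In bulk tissue, fewer cells of a type and less RNA per cell cannot be told apart.

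At 1 g/L, 431 genes rose (6.87% of those tested) and 181 fell (2.89%), 9.76% in all, and 1792 had an unadjusted p below 0.05. On the deposited scale the called falls were larger by median than the called rises, though the largest rise was 2.57 and the largest fall 2.52. Sizes on other scales were not compared. The median size of a called log2 fold was 0.37 for falls and 0.26 for rises, 43 falls and 25 rises exceeded 0.5, and 5 falls and 4 rises exceeded 1. All 6 treated libraries lay below all 6 controls for 103 genes (1.64%) and above them for 194 (3.09%). The balance of rises and falls depended on scaling. Rises made up 70.4% of calls on the deposited scale. They made up 39.3% when libraries were rescaled by median ratio (194 rose, 3.09%, and 300 fell, 4.78%, 7.88% in all) and 51.2% after quantile normalization. The median log2 fold over all genes was 0.05, so folds of about that size cannot be read as a direction. The count was lower still in a fit with the title tag. Since all controls carry L1, folds in that fit rest on the treated libraries tagged L1. What lowered the count was not tested. With the tag as a term 33 genes rose (0.526%) and 59 fell (0.941%), 1.47% in all, while the median SE grew 1.2 times. Without library 52 of the treated group 334 genes were called, without 54 it was 352, and without control 5 it was 382. Counts of 391, 395 and 398 came without 1 g/L 51, 1 g/L 50 and control 3. All 612 called genes kept the sign of their fold under each of the alternatives run over them. Those alternatives reuse the libraries in which the genes were called, so a kept sign is no independent check. The plot of gene lists sets the called share of each list beside these background shares.

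**Figure D1:**
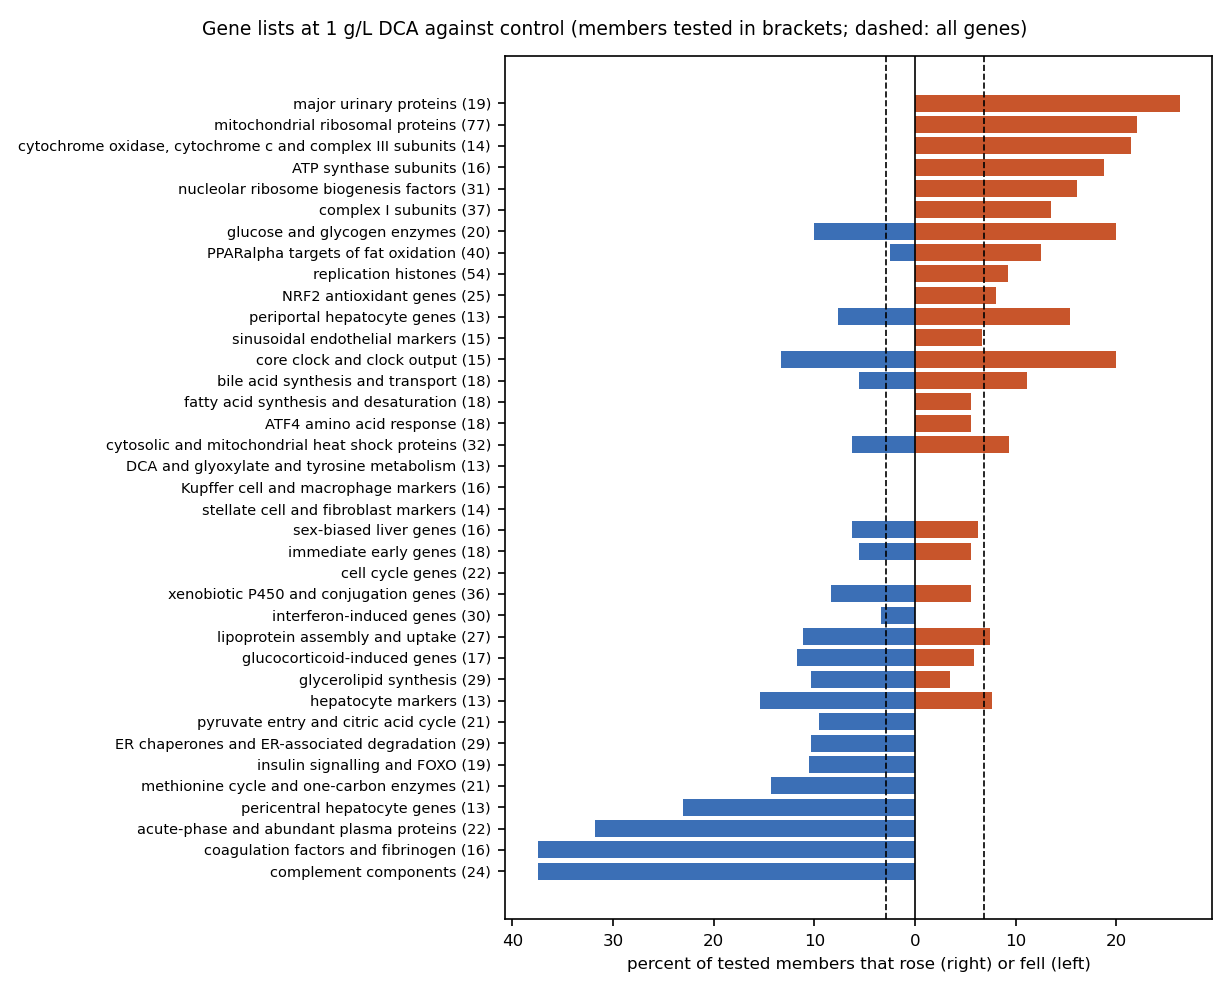
Percent of tested members that rose (bars to the right) or fell (bars to the left) at 1 g/L for each gene list with 10 or more tested members. Dashed lines mark the 6.87% of all tested genes that rose and the 2.89% that fell. Complement and coagulation lists extend farthest to the left, and the major urinary proteins and mitochondrial ribosomal proteins farthest to the right.

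The lipins showed the largest fall. Lpin1 and Lpin2 encode phosphatidate phosphatases, which make the diacylglycerol that triglyceride is built from, and Lpin1 also acts as a coactivator of fat oxidation genes. A stretch of each promoter is shown because Lpin1 fell by more than any other gene and Lpin2 fell with it. Bases are 5′ to 3′ on the gene's strand from RefSeq promoters on GRCm38, and capitals mark the matches of a motif search. Lpin1 (chr12:16611026-16611136, minus strand) holds the nuclear receptor hexamer AGGTCA, present in 14.0% of 32851 promoter windows of 250 bases, and TGTTCT, the glucocorticoid receptor hexamer AGAACA read on the other strand (16.1%). Lpin2 (chr17:71183472-71183531, plus strand, at one of its RefSeq starts) holds the E-box CACGTG (6.02%), whose first bases overlap the cAMP response hit TGACG read on the other strand.
Lpin1: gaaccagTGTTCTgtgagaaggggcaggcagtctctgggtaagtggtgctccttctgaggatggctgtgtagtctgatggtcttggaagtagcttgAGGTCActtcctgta
Lpin2: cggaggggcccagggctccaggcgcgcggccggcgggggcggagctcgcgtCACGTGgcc
A match describes these letters and shows neither a bound site nor a cause.

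Lpin1, on chromosome 12 at 16535669 to 16610966, had 35.2, 46.2 and 82.7 RPKM as the lowest, median and highest of the 6 controls, against 3.87, 8.34 and 9.73 at 1 g/L. Every treated library was far below every control, and the mean at 1 g/L was 0.157 of the control mean. The log2 fold was −2.52 (SE 0.21, adjusted p = 2.7e-05) and it was −2.70 with the tag as a term (adjusted p = 0.000245). Lpin2, on chromosome 17 at 71182560 to 71249817, ran from 20.6 to 29.9 RPKM (median 26.2) in controls and from 11.9 to 16.3 (median 12.9) at 1 g/L. These groups did not overlap either, and the log2 fold was −0.89 (SE 0.10, adjusted p = 0.00025), or −1.05 with the tag term. Lpin3, the remaining member, was barely expressed (0.746 and 0.718 RPKM on average) and its log2 fold was −0.02.

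Elsewhere in glycerolipid synthesis little passed the test. Of 29 list members tested 1 rose and 3 fell, with a median log2 fold of 0.06. Besides the lipins the fall was in Dgat2, which makes triglyceride from diacylglycerol (−0.21, SE 0.06), and the rise was in Acsl4, which activates arachidonic acid (0.34, SE 0.08). Dgat2 passed in 2 of the 12 fits that each left out 1 library, and Acsl4 in 11, failing without 1 g/L 54. In fatty acid synthesis 1 of 18 rose, Insig2, which holds back the sterol-sensing activators of lipid synthesis (48.9 to 73.4 RPKM in controls, 73.7 to 89.9 at 1 g/L, log2 fold 0.41, SE 0.09). Fasn (−0.36) and Acacb (−0.43) were lower on average without passing (adjusted p = 0.216 and 0.246). Under the tag term Insig2 (adjusted p = 0.118), Acsl4 (0.136) and Dgat2 (0.103) did not pass, which left the lipins as the only calls in both lists.

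**Figure D2:**
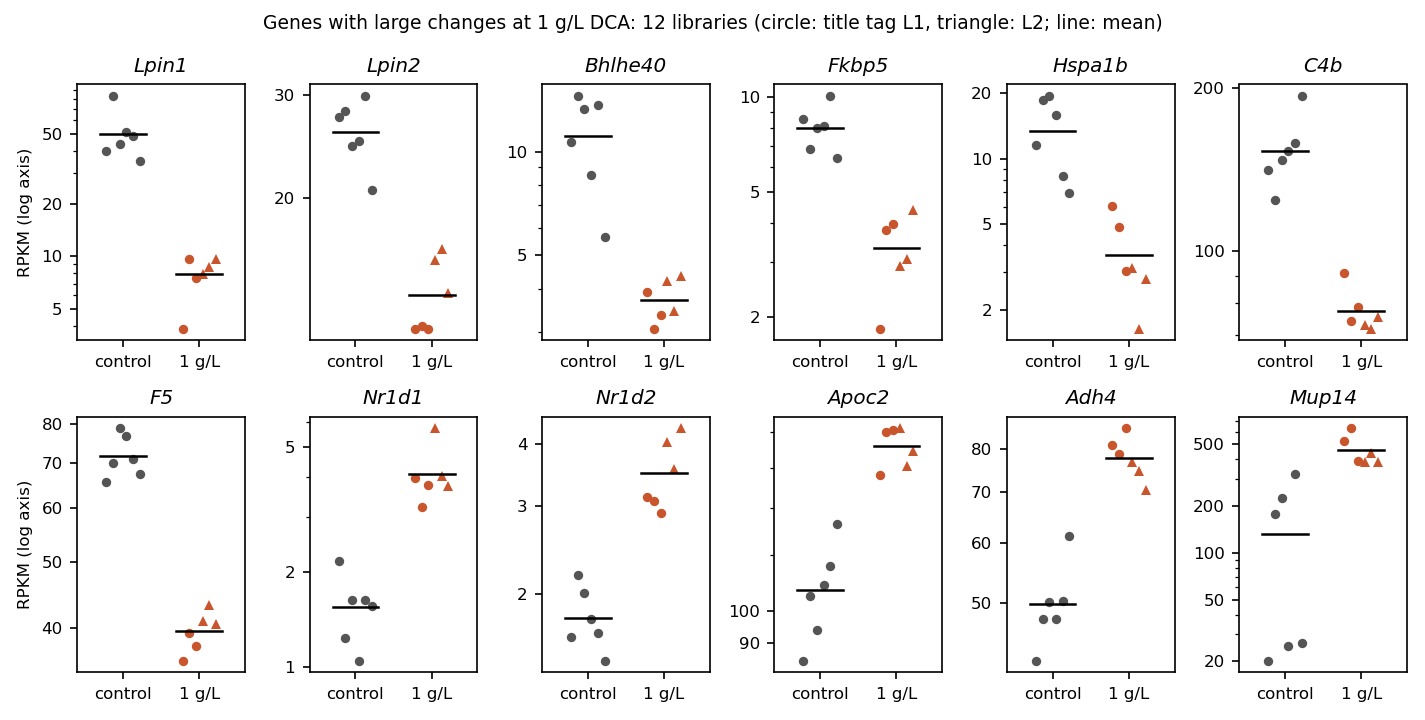
RPKM in each of the 12 libraries (log axis) for 12 genes with large changes at 1 g/L, with group means as lines, circles for title tag L1 and triangles for L2. The 1 g/L libraries lie below all controls for Lpin1, Lpin2, Bhlhe40, Fkbp5, Hspa1b, C4b and F5, and above all controls for Nr1d1, Nr1d2, Apoc2, Adh4 and Mup14.

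Clock repressors moved in opposite directions. Bhlhe40, a basic helix-loop-helix repressor that competes for clock E-boxes, had 5.63, 12 and 14.5 RPKM (lowest, median, highest) in controls and 3.06, 3.67 and 4.34 at 1 g/L, a log2 fold of −1.30 (SE 0.17, adjusted p = 0.000833). Nr1d1 and Nr1d2 encode REV-ERBα and REV-ERBβ, nuclear receptors that repress Arntl. Nr1d1 went from 1.05, 1.6 and 2.17 RPKM to 3.22, 3.88 and 5.71 (log2 fold 0.99, SE 0.11, adjusted p = 0.000288). Nr1d2 went from 1.47, 1.73 and 2.18 to 2.91, 3.34 and 4.29 RPKM (0.68, SE 0.08, adjusted p = 0.000496). None of these 3 genes overlapped between groups, and each passed with the tag as a term (−1.39, 0.88 and 0.54). The Nr1d2 promoter (chr14:18239156-18239216, minus strand) is shown for AGGTCA, the nuclear receptor hexamer found in 14.0% of promoter windows.
Nr1d2: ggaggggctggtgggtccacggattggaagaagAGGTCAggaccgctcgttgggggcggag

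Of 15 clock genes tested, 3 rose (the third was Clock, 0.17) and 2 fell. The other fall was in Ccrn4l, which encodes the rhythmic protein nocturnin, at 1.16, 2.04 and 5.86 RPKM in controls and 0.48, 0.867 and 1.59 at 1 g/L (−0.94, SE 0.27, adjusted p = 0.0456). Its groups overlapped, and controls 3 and 5 alone lay above 5 RPKM. Ccrn4l passed in 3 of 12 fits that left out 1 library and Clock in 2, and neither passed with the tag term (adjusted p = 0.197 and 0.243). Arntl, the activator that REV-ERB proteins repress, averaged 7.14 RPKM in controls and 8.39 at 1 g/L (log2 fold 0.20, adjusted p = 0.0655). Cry1, Cry2, Npas2 and Nfil3 did not pass (log2 folds of −0.06 to 0.17).

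Glucocorticoid-induced genes had mostly negative folds, but few passed. Fkbp5, a co-chaperone that restrains the glucocorticoid receptor and is induced by it, ran from 6.41 to 10.1 RPKM (median 8.08) in controls and from 1.84 to 4.38 (median 3.43) at 1 g/L. The groups did not overlap and the log2 fold was −1.08 (SE 0.14, adjusted p = 0.000729), or −1.13 with the tag term. Of 17 members tested 2 fell and 1 rose, the median log2 fold was −0.27 against 0.05 for all genes, and 13 folds were negative. Without control 8, 6 members fell, without control 7 or 1 g/L 49 or 51 it was 3, and without control 4, 5 or 6 or 1 g/L 50, 53 or 54 it was 1. The other fall was in Hsd11b1, which regenerates active glucocorticoid (135 to 166 RPKM in controls, 111 to 139 at 1 g/L, −0.27), a call kept in 4 of 12 such fits. The metallothioneins Mt1 (−1.73, SE 0.54, adjusted p = 0.0555) and Mt2 (−1.91, SE 0.64, adjusted p = 0.0701) had large folds with wide spread. The 61 bases of the Fkbp5 promoter shown (chr17:28486289-28486349, minus strand) hold an E-box, and no AGAACA lay in its 250-base window.
Fkbp5: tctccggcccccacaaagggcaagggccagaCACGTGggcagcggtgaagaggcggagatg

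Arrdc3 went the other way. This arrestin-domain gene, a regulator of receptor turnover, had 7.55, 13.6 and 15.8 RPKM in controls and 15, 34.3 and 56 at 1 g/L, a log2 fold of 1.26 (SE 0.28, adjusted p = 0.0186). Only its lowest treated library, 1 g/L 54, fell within the control range. Igfbp1, which binds insulin-like growth factors and is held down by insulin, averaged 6.19 and 15.4 RPKM (1.13, SE 0.35, adjusted p = 0.0556). G6pc, the last enzyme of glucose output, fell from 61.1, 91.4 and 118 RPKM to 40.3, 54.3 and 78.6 (−0.68, SE 0.16, adjusted p = 0.0204). Foxo1 (−0.40) and Foxo3 (−0.35), the forkhead factors that insulin excludes from the nucleus, were the 2 falls among 19 insulin-signalling genes, of which none rose. Both passed in 4 fits or fewer of the 12 that left out 1 library. With the tag as a term none of Arrdc3 (1.37, adjusted p = 0.0769), G6pc (−0.47, adjusted p = 0.188), Foxo1 (adjusted p = 0.0945) and Foxo3 (adjusted p = 0.136) passed.

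Egr1, an immediate early zinc-finger factor induced by growth signals, rose by the largest ratio of the genes named here. Controls held 0.207, 0.353 and 0.983 RPKM (lowest, median, highest) and 1 g/L libraries 1, 4.34 and 8.61. The groups did not overlap, the mean was 9.29 times higher and the log2 fold was 1.74 (SE 0.28, adjusted p = 0.0031). It was 2.26 with the tag term, since treated libraries tagged L1 held 4.57 to 8.61 RPKM and those tagged L2 1 to 4.1. Controls 3 and 4 alone reached 0.5 RPKM, so Egr1 entered the test through its treated libraries. Other immediate early genes did not follow it. Of 18 tested 1 rose and 1 fell, Klf10 (−0.67, SE 0.18), a call lost without control 3 or 7 or 1 g/L 50 or 53. Junb (0.33), Jun (0.22), Dusp1 (−0.21) and Btg2 (0.05) did not pass.

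Stress chaperones changed in both directions. Hspa1b, the inducible cytosolic HSP70, fell from 6.92, 13.7 and 19.4 RPKM to 1.65, 3.09 and 6.06, without overlap (log2 fold −1.64, SE 0.26, adjusted p = 0.0031). Its value is uncertain because a near-identical copy, Hspa1a, can share its reads, and it missed the threshold narrowly with the tag term (−1.30, adjusted p = 0.0504). Dnajb1, the HSP40 partner of HSP70, fell too (−0.47, SE 0.12), a call kept in 7 of the 12 fits that left out 1 library and lost with the tag term (adjusted p = 0.195). Of 32 heat shock proteins 2 fell and 3 rose, the rises being Hspe1, the mitochondrial co-chaperonin (31.2 to 45.3 and 40.9 to 60.8 RPKM, log2 fold 0.44), Hspa4 (0.25) and Dnaja2 (0.23). Over all genes tested 2.89% fell and 6.87% rose. No member of the heat shock list passed with the tag as a term. Hspa8, the constitutive HSP70, did not pass (−0.25, adjusted p = 0.267).

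In the endoplasmic reticulum (ER), 2 of the 3 genes that fell serve disposal of misfolded proteins. Herpud1, a scaffold of ER-associated degradation, had 87.1, 125 and 194 RPKM in controls and 47.5, 60.6 and 95.6 at 1 g/L (−1.01, SE 0.19, adjusted p = 0.00861). Only 1 g/L 52, the highest treated library, reached into the control range. Derl3, an ER membrane protein of the same pathway, went from 1.04, 2.85 and 5.49 RPKM to 0.394, 0.709 and 1.8 (−1.0, SE 0.27, adjusted p = 0.0358). Its groups overlapped, and its call held in 5 of 12 fits that left out 1 library and was lost with the tag term (adjusted p = 0.198). Ero1lb, an ER oxidase, was the third fall of 29 members tested (−0.40), and none rose. The list's median log2 fold was −0.20, and Hspa5 (−0.26), Hsp90b1 (−0.29) and Calr (−0.27) did not pass. Counts of falls ran from 1 (without control 3 or 6, or 1 g/L 51, 53 or 54) to 6 (without control 7). Control 8 was the highest of the 12 libraries for 14 of the 29 members, and 2 fell without it. With the tag as a term 1 fell, Herpud1 (−1.21, adjusted p = 0.0244), and with median-ratio factors 8 did.

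Promoters of Hspa1b (chr17:34959308-34959368, minus strand) and Derl3 (chr10:75893208-75893278, plus strand) hold stress motifs and are shown for that reason. Capitals mark the heat shock motif GAANNTTC in Hspa1b, found in 6.69% of promoter windows. In Derl3 they mark an E-box and the ER stress element, read on the other strand and found in 0.113% of windows.
Hspa1b: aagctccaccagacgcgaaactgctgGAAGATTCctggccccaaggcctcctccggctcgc
Derl3: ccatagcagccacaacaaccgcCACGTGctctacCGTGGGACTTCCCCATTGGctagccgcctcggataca

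The lists with the highest share of falls were those made up mostly of secreted plasma proteins. Of 24 complement components tested 9 fell and none rose, with a median log2 fold of −0.24 and 21 negative folds. C4b, of the classical pathway, had 124, 150 and 193 RPKM in controls and 71.9, 75 and 91.2 at 1 g/L, a log2 fold of −0.96 (SE 0.09, adjusted p = 9.97e-05). C3, on which all complement pathways converge, went from 975, 1250 and 1580 RPKM to 609, 721 and 875 (−0.79, SE 0.12, adjusted p = 0.00175). Cfb, the protease of the alternative pathway, ran from 256 to 400 RPKM in controls and 187 to 218 at 1 g/L (−0.59, SE 0.09). For these 3 genes, and for the protease Cfi (−0.38) and the pore component C8a (−0.30), the groups did not overlap. C2 (−0.34), C1ra (−0.29), C1s1 (−0.27) and Masp2 (−0.24) also fell, while the lectins Mbl1 and Mbl2 (−0.01 and 0.04) and the regulator C4bp (−0.05) did not pass.

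Coagulation factors fell in 6 of 16 tested, with none rising and a median of −0.11. F5 encodes the cofactor of prothrombinase. It held 65.7, 70.4 and 78.7 RPKM in controls and 35.8, 40 and 43.3 at 1 g/L (−0.84, SE 0.06, adjusted p = 1.4e-05, and −0.91 with the tag term). Prothrombin, F2, went from 416, 449 and 458 RPKM to 305, 321 and 334 (−0.48, SE 0.05), and F12, which starts the contact pathway, from 80.1, 84.1 and 91.6 to 61, 62.9 and 65.2 (−0.43, SE 0.05). None of these overlapped between groups. F9 (−0.25), Hrg (−0.27) and F7 (−0.20) also fell. The fibrinogen chains did not pass, with log2 folds of 0.07 for Fga, 0.03 for Fgb and 0.02 for Fgg (SE 0.13 each).

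Among acute-phase and abundant plasma proteins 7 of 22 fell, none rose, and the median was −0.23. Inter-alpha-trypsin inhibitor heavy chains, which stabilise hyaluronan, led them. Itih1 went from 159, 177 and 189 RPKM to 62.7, 117 and 123 (−0.71, SE 0.14), with 1 g/L 50 far below the rest, and Itih3 (−0.53), Itih4 (−0.62) and Itih2 (−0.39) fell too. Fetub, a liver protease inhibitor, ran from 81.6 to 102 RPKM in controls and 57.7 to 65.5 at 1 g/L (−0.50, SE 0.06). Il1r1, a cell-surface receptor counted in this list, was among the falls (−0.50, SE 0.14, adjusted p = 0.0351). The listed receptor genes Il6ra (−0.53) and Il1rap (−0.05) did not pass. Alb itself was between 17200 and 23500 RPKM in controls and between 15600 and 20200 at 1 g/L (−0.23, adjusted p = 0.142). Hp (−0.14, SE 0.27), Apcs (−0.14, SE 0.20) and Lcn2 (−1.02, SE 0.76), which rise in inflammation, did not pass. Markers later in symbol order, such as the serum amyloid A genes, were not analysed here.

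Control 8 stood apart in these lists. Its Lcn2 level was 153 RPKM against 2.89 to 4.68 in the other controls and 1.14 to 8.35 at 1 g/L. It was the highest of the 12 libraries for 14 of 24 complement, 11 of 22 acute-phase and 13 of 16 Kupffer cell and macrophage genes. Without control 8 the falls were 9 complement, 5 coagulation and 6 acute-phase genes, as against 9, 6 and 7 with it. Kupffer cell markers summed to 118 to 171 RPKM in controls and 113 to 139 at 1 g/L, and none of the 16 passed (median −0.11). With the tag as a term 3 members of each list fell, C4b (−0.89), C3 (−0.66) and Cfb (−0.56), F5, F2 (−0.45) and F12 (−0.41), and Fetub (−0.52), Itih2 (−0.45) and Itih1 (−0.85). With library factors by median ratio the falls were 11, 8 and 8.

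**Figure D3:**
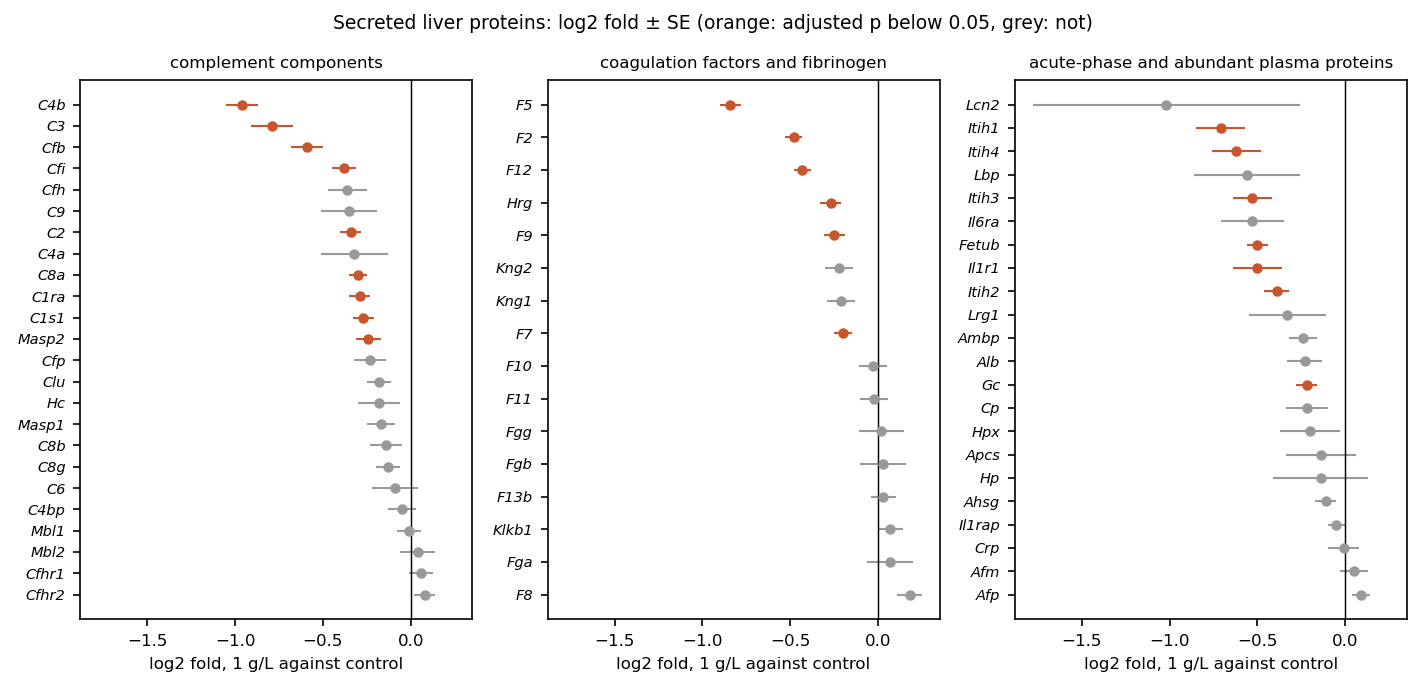
Log2 fold with SE at 1 g/L against control (6 libraries each) for every tested complement, coagulation and acute-phase gene, orange where the adjusted p was below 0.05. In each panel all orange points lie left of 0, led by C4b at −0.96, F5 at −0.84 and Itih1 at −0.71, while the fibrinogen chains Fga, Fgb and Fgg lie near 0.

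Of 27 genes of lipoprotein handling tested 2 rose and 3 fell, where 6.87% of all genes tested rose and 2.89% fell. Apoc2, the cofactor that lipoprotein lipase needs, rose from 84.9, 107 and 133 RPKM to 156, 175 and 182 (0.69, SE 0.09, adjusted p = 0.000965, and 0.70 with the tag term). Angptl4, an inhibitor of that lipase, fell from 22.9, 26.8 and 31.9 RPKM to 12.6, 16.9 and 21 (−0.67, SE 0.11, adjusted p = 0.00329, and −0.86 with the tag term). Both changed without overlap between the groups. Lrp1, a receptor for lipoprotein remnants, went from 76.9 to 101 RPKM down to 61.5 to 67.6 (−0.41, SE 0.07). Apob, the structural protein of secreted lipoproteins, fell by 0.34 on the log2 scale (SE 0.08). Abca1, which loads lipid onto HDL, rose (0.23, SE 0.06), a call lost without control 5 or 6 or 1 g/L 52 or 54. Under the tag term Lrp1 passed (adjusted p = 0.0335), and Apob (0.0694) and Abca1 (0.164) did not. Apoc1 (0.16), Apoc3 (0.09), Apoc4 (0.07), Apoa1 (−0.06) and Apoe (−0.14) did not pass. Apoc2 lies beside Apoc1, Apoc4 and Apoe in the genome.

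Most targets of PPARα, the fatty acid sensor that switches on fat oxidation, did not pass at this dose. Of 40 tested 5 rose and 1, Angptl4, fell, with a median log2 fold of 0.16. Over all genes tested 6.87% rose and 2.89% fell, and the median was 0.05. Fabp1, the liver fatty acid carrier, went from 1040, 1780 and 2170 RPKM to 2020, 2780 and 2900 (0.63, SE 0.18, adjusted p = 0.0371). The peroxisomal thiolase Acaa1b (0.50), the dienoyl-CoA reductases Decr1 (0.35) and Decr2 (0.30) and the isomerase Eci1 (0.26) were the others. The most responsive targets of this receptor did not pass. Cyp4a14 ran from 0.0566 to 2.84 RPKM (median 0.595) in controls and from 0.708 to 6.62 (median 2.17) at 1 g/L, a log2 fold of 0.86 (SE 0.36, adjusted p = 0.134). Cyp4a10 (0.73, adjusted p = 0.32) and Ehhadh (0.34, adjusted p = 0.0665) overlapped between groups too. The Cyp4a genes are close copies and their reads are uncertain. Fgf21, a hormone induced by the same receptor, was below 0.5 RPKM in all 12 libraries and was not tested. None of the 5 rises passed with the tag as a term, and 2 rose with factors by median ratio. Counts ran from 2 (without control 3 or 5, or 1 g/L 50, 51, 52 or 54) to 10 (without 1 g/L 49).

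Nuclear genes for the mitochondrial ribosome and respiratory chain had mostly small positive folds, of which a minority passed. All 77 mitochondrial ribosomal proteins tested had positive log2 folds, with a median of 0.15, against 4095 of all 6272 genes, and 17 rose. With median-ratio factors 71 of the 77 were positive, against 3147 of all genes. Among them were Mrpl54 (8.29 to 10.6 RPKM in controls, 11.6 to 14 at 1 g/L, log2 fold 0.34, SE 0.06), Mrps30 (0.30), Mrpl53 (0.27) and Mrpl50 (0.22), none of which overlapped between groups. Of 37 complex I subunits 5 rose (median 0.21), among them Ndufb6 (0.36), Ndufs6 (0.26) and Ndufb10 (0.25). Of 14 subunits of cytochrome oxidase, cytochrome c and complex III 3 rose, Cox5b (0.35), Cox6b1 (0.33) and Cox6a1 (0.27). ATP synthase had 3 of 16 rising, Atp5k (0.37), Atp5l (0.34) and Atp5j2 (0.27). None of these lists held a fall.

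These mitochondrial counts leaned on single libraries. Control 3 held the lowest of 12 values for 26 of 37 complex I, 41 of 77 mitochondrial ribosomal and 10 of 14 cytochrome oxidase list genes. Without it, 0 complex I, 9 mitochondrial ribosomal and 1 cytochrome oxidase gene rose. No complex I gene rose without control 5 or 1 g/L 50, 51, 52 or 54, and 2 did without control 6. No cytochrome oxidase list gene rose without control 5 or 6 or 1 g/L 50, 51 or 52. Without 1 g/L 49 the counts were 14 complex I, 25 mitochondrial ribosomal, 8 cytochrome oxidase and 6 ATP synthase genes. Mitochondrial ribosomal counts were 7 without 1 g/L 54, 8 without 50 or 52, 9 without 51, 10 without control 4 and 11 without control 5. With the tag as a term 1 gene of these lists passed, Mrpl53 (0.34, adjusted p = 0.0317), while the median folds were 0.15 for mitochondrial ribosomal and 0.23 for complex I genes. With factors by median ratio 8 mitochondrial ribosomal and 3 complex I genes rose, with medians of 0.09 and 0.14.

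Pyruvate dehydrogenase kinases, the target of DCA, were not analysed here, since their symbols come after the point where the table stops. Among 13 genes of DCA, glyoxylate and tyrosine breakdown none passed, and Gstz1 itself ran from 109 to 131 RPKM in controls and 121 to 141 at 1 g/L (0.16, SE 0.06, adjusted p = 0.105). In pyruvate entry and the citric acid cycle 2 of 21 fell and none rose. They were Got1, the cytosolic aspartate aminotransferase (52.7 to 80.8 and 38.7 to 55.6 RPKM, −0.51, SE 0.10), and Idh2, the mitochondrial NADP-dependent isocitrate dehydrogenase (−0.48, SE 0.11). Pyruvate carriers Mpc1 (−0.10) and Mpc2 (0.21) and the dehydrogenase subunit Dlat (0.05) did not pass. Of 20 glucose and glycogen genes 4 rose and 2 fell. Among the rises were the fructose kinase Khk (0.28), the pentose phosphate enzyme H6pd (0.24) and Galt (0.21), each in 5 fits or fewer of the 12 that left out 1 library. Besides G6pc the fall was in Gckr, which restrains glucokinase (−0.26, SE 0.06). Counts of rises ran from 0 (without control 3, 5 or 6, or 1 g/L 51, 52 or 54) to 6 (without 1 g/L 49). With median-ratio factors 0 glucose and glycogen genes rose and 2 fell. Methionine and one-carbon enzymes had 3 falls of 21, among them Dmgdh (−0.35, SE 0.06) and Ahcy (−0.21). Ahcy held in 1 of those 12 fits. No gene of the glucose and one-carbon lists passed with the tag as a term. Got1 did (−0.60, adjusted p = 0.0368) and Idh2 did not (adjusted p = 0.0775).

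Male-typical liver genes gave mixed results. Major urinary proteins, pheromone carriers made in male liver, had 5 rises of 19 tested (Mup14, Mup20, Mup7, Mup2 and Mup3) and no fall, while their median was −0.06. Their genes are near-identical and reads can pass between them, so each value is uncertain. Mup14 had 20.2, 101 and 320 RPKM in controls and 384, 414 and 632 at 1 g/L (2.57, SE 0.63, adjusted p = 0.0239). Controls 3, 6 and 8 lay at 20.2 to 26.2 and controls 4, 5 and 7 at 177 to 320, so the controls themselves were spread more widely than the treated libraries. Mup20, darcin, went from 81.9, 235 and 456 to 452, 638 and 835 RPKM (1.59, SE 0.35), with control 5 just above the lowest treated library. Mup2 (20.1 to 27 and 27.1 to 47.2 RPKM, 0.73, SE 0.12) passed with the tag as a term (0.72, adjusted p = 0.0335), which Mup14 (adjusted p = 0.111), Mup20 (0.0569) and Mup7 (0.0658) did not. Mup10 (−1.49) and Mup9 (−1.21) had large negative folds that did not pass. Hsd3b5, a male-specific steroid reductase, rose (0.35, SE 0.09), the single rise of 16 sex-biased genes, of which 1, C8a, fell. Over all genes tested 6.87% rose and 2.89% fell. With median-ratio factors 0 of the 16 rose. Mup3 passed in 3 of 12 fits that left out 1 library, and Hsd3b5 in 8.

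Several enzymes and carriers outside these lists were among the largest changes. Adh4, an alcohol and retinol dehydrogenase, rose from 41.9, 48.9 and 61.3 RPKM to 70.6, 77.7 and 85.1 (0.64, SE 0.08, adjusted p = 0.000533, and 0.71 with the tag term). Cyp26b1, which breaks down retinoic acid, fell from 1.69, 2.93 and 3.46 RPKM to 0.193, 1.04 and 2.26 (−0.88, SE 0.19, adjusted p = 0.016). Lrtm1, a leucine-rich repeat membrane protein, fell from 1.51, 1.91 and 2.86 to 0.704, 0.759 and 0.846 RPKM (−0.75, SE 0.09), again without overlap. Csad, of taurine synthesis, fell (−0.72, SE 0.20, adjusted p = 0.0386), and Cda, a cytidine deaminase, rose from 0.302 to 1.53 RPKM up to 1.64 to 3.25 (0.67, SE 0.16). Mid1, a ubiquitin ligase of microtubules, rose by 0.84 (SE 0.19), and Aqp8, a water channel, by 0.81 (SE 0.22, adjusted p = 0.0357), the single rise among 5 aquaporins. Of these genes Adh4, Lrtm1 and Mid1 passed with the tag as a term. Csad passed in 4 and Aqp8 in 3 of the 12 fits that left out 1 library. With median-ratio factors 0 of the 5 aquaporins rose.

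Carboxylesterases, whose copies share reads, split, with Ces1c (691 to 822 and 554 to 670 RPKM, −0.34) and Ces1b (−0.48) falling and Ces2c rising (0.62). Among 36 xenobiotic genes 2 rose and 3 fell. Of 18 bile acid genes 2 rose, the bile acid receptor Nr1h4 (0.40) and Amacr (0.26), and 1 fell, Fgfr4 (−0.32), the hepatic receptor for the hormone that restrains bile acid synthesis. Pericentral genes had 3 falls of 13, Oat (−0.43), Lhpp (−0.43) and the Wnt target Axin2 (−0.26), without a rise, while Glul (−0.05), Cyp2e1 (−0.25) and Cyp1a2 (−0.21) did not pass. Periportal genes had 2 rises, Aldh1b1 (0.33) and Hal (0.32), and 1 fall, G6pc. Antioxidant genes under NRF2 had 2 rises of 25, Ftl1 (0.26) and Ephx1 (0.45). Beside the counts of these lists, 6.87% of all genes tested rose and 2.89% fell. Of the 12 fits that left out 1 library, Lhpp passed in 9, Aldh1b1 and Hal in 8, Nr1h4 in 5, Ces1b and Ftl1 in 4 and Ephx1 in 3. No member of these lists passed with the tag as a term. With median-ratio factors 0 bile acid and 0 NRF2 genes rose, as against 1 xenobiotic and 2 periportal genes. Falls were then 2 bile acid, 5 xenobiotic, 4 pericentral and 2 periportal genes.

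No cell cycle gene passed among 22 tested. Ccnd1, the cyclin of entry into the cycle, ran from 3.35 to 5.15 RPKM in controls and 4.02 to 6.53 at 1 g/L (0.15, SE 0.12, adjusted p = 0.41), and Mcm4 (0.28, adjusted p = 0.0567) came nearest. Replication histones had 5 rises of 54 and a median of 0.20. They were the linker histones Hist1h1d (5.29 to 8.56 and 9.53 to 15.6 RPKM, log2 fold 0.63, SE 0.12), Hist1h1e (0.38) and Hist1h1c (0.37), and Hist1h4k (0.48) and Hist1h4h (0.29). Histone genes are near-identical copies and their reads are uncertain. Nucleolar factors of ribosome assembly had 5 rises of 31 (Nip7, Dkc1, Grwd1, Nhp2 and Nop2, median 0.19). Over all genes tested 6.87% rose. With median-ratio factors 2 histone and 2 nucleolar genes rose. Neither list had a call with the tag as a term. Without 1 library the histone count ran from 2 (without control 3, 4 or 5, or 1 g/L 51, 53 or 54) and 3 (without 1 g/L 52) to 8 (without control 6) and 9 (without 1 g/L 49). The nucleolar count was 1 (without control 5 or 6, or 1 g/L 52 or 54) or 3 (without control 3 or 1 g/L 50) at its lowest.

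Few markers of other cell types passed, where 6.87% of all genes tested rose and 2.89% fell. Of 15 sinusoidal endothelial markers 1 rose, Kdr, the VEGF receptor (0.19, SE 0.05), in 5 of 12 fits that left out 1 library, and no stellate cell marker of 14 passed. Erythroid and globin genes summed to 316 to 1070 RPKM in controls and 388 to 681 at 1 g/L, and none of 8 passed at a median of −0.36. Lymphocyte markers summed to 8.37 RPKM in 1 g/L 53 and to at most 1.98 in the controls. Of 30 interferon-induced genes 1 fell, Irf7 (−0.37), in 6 of 12 such fits, and none rose.

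Treated libraries of the 2 tags were then set against each other. Between the 3 libraries tagged L2 and the 3 tagged L1, limma called 0 of 6272 genes, and 514 had an unadjusted p below 0.05. That number was 521 with a pseudocount of 0.1, 434 with median-ratio factors, 400 after quantile normalization and 350 of 4296 genes at a minimum of 2 RPKM. With 3 libraries a side the median SE was 1.27 times that of the main comparison, so 0 calls do not show that the tags were alike. For Lpin1 the difference was 0.35, for Egr1 −1.04, for Hspa1b −0.66 and for Cyp4a14 1.05 on the log2 scale, none of them called. Compared with controls, the L1 libraries alone gave 12 rises and 39 falls, and the L2 libraries alone gave 280 rises and 77 falls. Both use the same 6 controls, and in the second tag and dose cannot be told apart.

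The next dose, 2 g/L, was compared with 1 g/L for the same genes. Between 1 and 2 g/L 1280 genes rose (20.4%) and 338 fell (5.39%), 25.8% in all. That balance depended on scaling, with 625 rises and 668 falls with median-ratio factors and 572 and 641 after quantile normalization. With the 1 g/L libraries tagged L2 only, 575 were called. Lpin1, at 4.19 to 8.12 RPKM, did not pass this comparison (2 minus 1 g/L, log2 difference −0.27, SE 0.18, adjusted p = 0.301). Neither did Adh4 (0.06, SE 0.07, adjusted p = 0.556) or C4b (−0.25, SE 0.09, adjusted p = 0.0651). Nr1d1 rose further to 6.94 to 17.8 RPKM (1.34, SE 0.17), Apoc2 to 197 to 247 (0.37, SE 0.07), and F5 fell further to 25.6 to 34.5 (−0.42, SE 0.07). PPARα targets rose in 39 of 40, led by Cyp4a14, at 173 to 1130 RPKM (7.56, SE 0.45), and Cyp4a10 (6.47).

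Some genes were lowest at 1 g/L. Lpin2 held 21.4 to 42.9 RPKM at 2 g/L, a range that overlapped controls, and 58.6 to 76.3 at 3.5 g/L. Its fold against control was negative at the lowest dose and positive at the others (log2 folds of 0.35 at 2 g/L and 1.37 at 3.5 g/L, fitted over all 24 libraries). Those 2 comparisons share their controls with that of 1 g/L, and in them 42.1% and 38.9% of genes rose and 10.3% and 13.4% fell, 52.4% and 52.3% in all. All controls carry tag L1, all 2 g/L libraries L2 and all 3.5 g/L libraries L3, so tag and dose cannot be told apart there. Bhlhe40 held 6.45 to 12.3 RPKM at 2 g/L and 4.51 to 14.9 at 3.5 g/L, with log2 folds against control of −0.22 (adjusted p = 0.455) and −0.35 (adjusted p = 0.217). Both rose from 1 to 2 g/L (1.24, SE 0.14, and 1.09, SE 0.14), also against the L2 libraries alone (adjusted p = 0.00939 and 0.0138). Cyp26b1 rose as well (1.25, adjusted p = 0.0148), a call lost against the L2 libraries alone (adjusted p = 0.0801).

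Departure from the straight line between 0 and 2 g/L was tested as 1 g/L minus the mean of both, a contrast that shares its libraries with the others and in which an additive tag difference cancels. In it 57 genes lay above the midpoint (0.909%) and 130 below (2.07%), 2.98% in all. The counts above and below were 92 and 141 with median-ratio factors and 127 and 122 after quantile normalization. Lpin2 (−1.06, SE 0.11, adjusted p = 9.59e-05), Bhlhe40 (−1.19, SE 0.16, adjusted p = 0.000709), Lpin1 (−1.12, SE 0.17), Klf10 (−0.79, SE 0.15) and Fkbp5 (−0.70, SE 0.12) lay below. For Lpin1 the step from 0 to 1 g/L was −2.52 and that from 1 to 2 g/L −0.27, whereas for Lpin2 and Bhlhe40 the second step was upward. Of 40 PPARα targets 24 lay below, with Cyp4a14 at −3.35 (SE 0.37) and Ehhadh at −1.98 (SE 0.32). Above it lay Egr1 (1.38, SE 0.26), Mup21 (1.13, SE 0.26), the interferon-induced GTPase Gbp11 (0.93), Hsd3b5 (0.66) and Aox3 (0.64), an aldehyde oxidase. Nr1d1 (−0.17, SE 0.14) and Apoc2 (0.16, SE 0.08) did not pass.

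**Figure D4:**
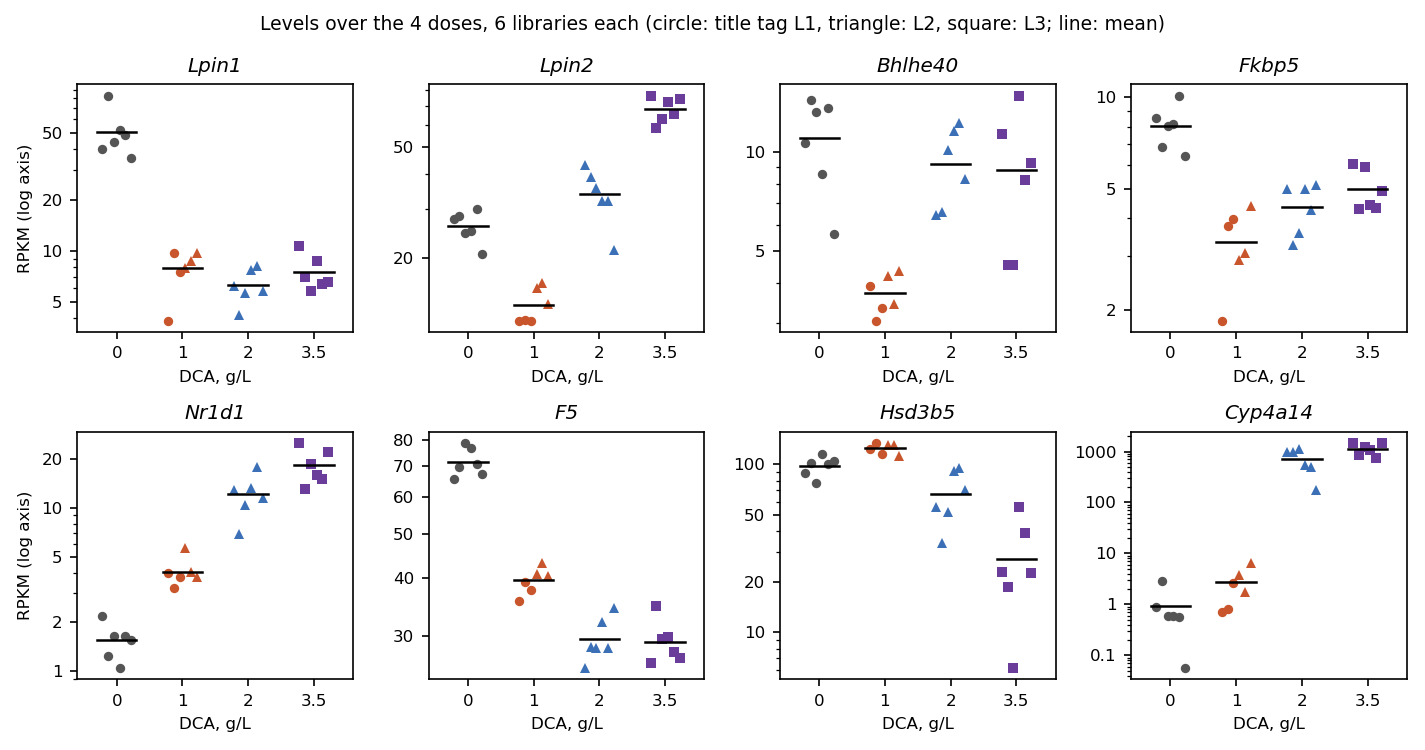
RPKM in each library (log axis) at 0, 1, 2 and 3.5 g/L, 6 libraries a dose, with means as lines and marker shapes for title tags L1, L2 and L3. Lpin1 is low from 1 g/L on, Lpin2 and Bhlhe40 are lowest at 1 g/L, Nr1d1 climbs with dose, and Cyp4a14 overlaps control at 1 g/L and lies between 173 and 1130 RPKM at 2 g/L. Controls carry L1, 2 g/L libraries L2 and 3.5 g/L libraries L3, so tag and dose cannot be told apart between them.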

How the data were processed

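Total RNA of frozen mouse liver was sequenced in 24 libraries, of which 12 enter the main comparison (6 control, 6 DCA 1 g/L). The authors deposited 1 table of RPKM values per gene and library, made with CASAVA, STAR 2.4 and Partek on mm10, per the submitters' processing notes. The gene annotation, the counting rule and its strand setting are not given in the sources used here, so values of overlapping, antisense or near-identical genes (Mup, Hspa1a and Hspa1b, Cyp4a, Ces, histones) are uncertain. The deposited RPKM table lists zeros as 0.0001 and stops inside the line of Olfr272, so genes later in symbol order, and the mitochondrially encoded transcripts, were not analysed here. The 13 lines whose symbol had become a date were dropped, which left 15582 genes, and 0 columns went unused.

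Genes with at least 0.5 RPKM in at least 6 of the 12 libraries (6272) were tested on log2(RPKM + 1) with limma 3.58.1 (R 4.3.3) with a trend in the spread, two-sided, with Benjamini-Hochberg adjusted p below 0.05 over all genes tested. Unless another test is named, every adjusted p is from limma. Depth was estimated in Python 3.11.15 from the steps of low values. Of 8611 candidate genes 1089 were kept, those whose values all lay near whole reads, with a relative tolerance of 0.05. Among their values 99.4% lay within a relative 0.02 of a whole number of reads. That share follows largely from the choice of genes and is no check of the depth. Such intervals and steps cover counting error only, and the calls rest on 6 libraries a group. The fit was tested on simulated data. Alternatives were pseudocounts of 0.1 and 0.5, no filter, a minimum of 2 RPKM, median-ratio and quantile scaling, the title tag as a term, each tag alone, all 24 libraries, no trend, and each library left out. "Factors by median ratio" means dividing each library by its median ratio to the geometric mean of the libraries.

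Members and the 44 gene lists were chosen with earlier results of these data known. Genes named are the 15 largest called rises and 15 largest falls (leaving out symbols of predicted or small RNA genes), up to 4 called members a direction in each list by adjusted p, and Cyp4a14, Cyp4a10, Ehhadh, Gstz1, Ccnd1, Fgf21 and Alb. The contrasts with the midpoint and with 2 g/L added up to 8 in each direction. List members outside this rule were named after their values were seen. Promoters are those of RefSeq on GRCm38, matched by symbol for 24 of the 30 genes with the largest changes. Both strands of 250 bases upstream were searched for the heat shock motifs GAANNTTC and TTCNNGAA, the E-box CACGTG, the nuclear receptor hexamer AGGTCA, the cAMP motifs TGACGTCA and TGACG, the glucocorticoid hexamer AGAACA, the TATA box TATAAA, the antioxidant motif TGACNNNGC and the ER stress element. Hits of TGACG can overlap those of TGACGTCA and CACGTG. A few list members are counted but not reported here by name.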

Additional observations from a re-analysis of the deposited data

Results flagged for a closer look

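Of 232 groups of 6 libraries examined over 116 named genes, 17 had a library far from its neighbours by Dixon's 95% critical value for 6 samples, which sets the gap against the group's range. Chance flags about 1 in 20 groups. Values are RPKM. Control 3 held 6 of them. It was low for Ndufb6 (21, the nearest control at 26.9), Ndufb10 (39.8, nearest 45.4), Cox6b1 (98.8, nearest 127), Ahcy (265, nearest 309) and F2 (416, nearest 443), and high for Ces1b (93.9, nearest 57.8). Control 8 was low for the glucokinase regulator Gckr (19.8, nearest 22.9) and for Ces1c (691, nearest 780), and control 7 was high for Mup2 (27, nearest 22.1).

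In the treated group 1 g/L 52 was high for Herpud1 (95.6, nearest 61.6), Insig2 (89.9, nearest 76.5), Galt (10.2, nearest 9.19) and Cyp2d22 (23.9, nearest 21.3). Library 49 was low for Lpin1 (3.87, nearest 7.49) and Ndufb6 (25.8, nearest 33.2). Library 50 was low for Itih1 (62.7, nearest 115), and library 54 was high for Abca1 (40.6, nearest 37).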

How the results depend on the processing

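At 1 g/L against control 612 genes were called. The count was 374 with no filter on low values, where more genes shared the adjustment, 92 with the title tag as a term, 51 within the libraries tagged L1 and 357 with treated libraries tagged L2 only, and it ran from 334 (without 1 g/L 52) to 882 (without 1 g/L 49) when 1 library was left out. Smaller groups or a further term leave fewer degrees of freedom, and how much of each drop came from that was not tested. Folds with the tag as a term are those within L1, since all controls carry L1. The count for 2 g/L against 1 g/L was 1618, and 575 with the 1 g/L libraries tagged L2 only. Of 112 named genes called at 1 g/L, 112 kept their call with a pseudocount of 0.5 and without a trend in the spread, 111 with a pseudocount of 0.1, 101 after quantile normalization, 84 with median-ratio factors, 81 in the fit over all 24 libraries, 65 with no filter and 26 with the tag as a term. With 1 library left out 50 of the 112 lost their call at least once. No called fold changed sign in these settings, which reuse the libraries in which the genes were called. No paired analysis was possible because control and treated libraries share no replicate numbers.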
